A study of Mus musculus with 16 samples.

Results

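The Wnt system of the mouse spleen was examined through 44 genes. They were chosen by symbol alone from the 54838 genes of the count table: 19 Wnt ligands, 10 Frizzled receptors, 8 antagonists of the Sfrp and Dkk families, and 7 genes of the R-spondins and their receptors (*Rspo1* to *Rspo4* and *Lgr4* to *Lgr6*). RNA was sequenced from C57BL/6 mouse spleen in 8 size-selected samples and 8 whole spleen samples. No genotype, treatment or age is given for either group, and each has 4 male samples (numbers 407, 408, 427 and 435) and 4 female samples (436, 445, 447 and 460). The size-selected cells are those that a cell strainer held back after spleens had been minced, digested with enzymes and freed of red blood cells, and the labels give their source as spleen glia, the cells that accompany nerve fibres. The labels do not describe a separate preparation for whole spleen. Each group holds the same 8 numbers, and since no label says what a number stands for, the p-values measure the spread between these samples. The comparison asked which of these genes are enriched in the size-selected fraction.

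Wnt proteins are lipid-modified secreted ligands that act over short distances. They bind Frizzled receptors together with a co-receptor, either *Lrp5* or *Lrp6*, which stabilises beta-catenin and lets it act with TCF/LEF factors on DNA, or other co-receptors that act on cell polarity and movement without beta-catenin. Sfrp proteins resemble the ligand-binding part of a Frizzled and bind Wnt outside the cell, Dkk proteins act on the Lrp co-receptors, and R-spondins act through Lgr receptors to keep Frizzleds at the cell surface. In lymphoid organs, Wnt genes are known mostly from stromal cells, while TCF/LEF factors are known from T cell development.

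A log2 fold change, or log2 difference, is size-selected over whole spleen throughout. Libraries held from 13119992 to 19944440 estimated counts in the size-selected group and from 12153770 to 16282454 in whole spleen. Levels are given as CPM, an estimated count relative to its library size after TMM scaling between libraries. The 14 glia marker genes summed to between 105 and 771 CPM in the size-selected samples and between 8.93 and 27.5 CPM in whole spleen. Markers of other stromal cells were also higher in the size-selected samples. The fibroblast list summed to 1016 to 3610 CPM against 4.67 to 57.7 CPM, the smooth muscle list to 822 to 3940 against 8.75 to 77, the endothelial list to 784 to 1974 against 86.3 to 229, and the mesothelial list to 43.6 to 286 against 0.824 to 3.75. Of the genes in these 5 lists, *Bnc1*, a mesothelial marker, was the one listed at 0 in all 8 whole spleen samples. The B cell list was lower, at 962 to 3399 CPM against 5309 to 6560, and so was the T cell list, at 138 to 353 against 409 to 654. The list of immediate early and heat shock genes that respond to dissociation summed to 3799 to 7462 CPM against 1554 to 2397. The macrophage list (937 to 2384 CPM against 777 to 1271) and the megakaryocyte list (92.3 to 627 against 51.5 to 189) were higher in 8 of 8 pairs of the same number. The neutrophil list (91.3 to 863 against 511 to 1889) and the erythroid list (5.06 to 150 against 7.98 to 323) were lower in 8 of 8. The part of these lists in the differences below was not tested, and in bulk RNA a change in the number of cells of a type and a change in RNA per cell cannot be told apart. In the size-selected columns, 11 of the 44 genes carry values multiplied by a constant below 1, in part with more than 1 constant. Values on counts with the constants divided out are called restored, and are given for each named gene that they move by over 0.2 on the log2 scale or whose call they end.

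Of the 44 genes, 22 passed the count filter, edgeR's filterByExpr with a minimum count of 10. With edgeR, 21 of these were called higher in the size-selected fraction at an adjusted p under 0.05, where 37.5% of all 14510 genes tested were called higher. The remaining one, the ligand *Wnt10a*, was called lower, as were 30.4% of all genes tested. The median log2 fold change of the 22 was 4.35, and that of all genes tested was 0.05. A gene that is scarce in whole spleen can pass the filter only when it is abundant in the size-selected samples, so these counts describe the 22 and not all 44. For 19 of the 22, the lowest size-selected value lay above the highest whole spleen value, as it did for 23.3% of all genes tested. The 3 whose fractions overlapped were *Fzd5*, *Fzd9* and *Wnt10a*. Of the other 22 genes, 18 had too few counts for the filter, and *Dkk1*, *Dkk4*, *Rspo4* and *Wnt3a* were listed at 0 in all 16 samples.

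**Figure D1:**
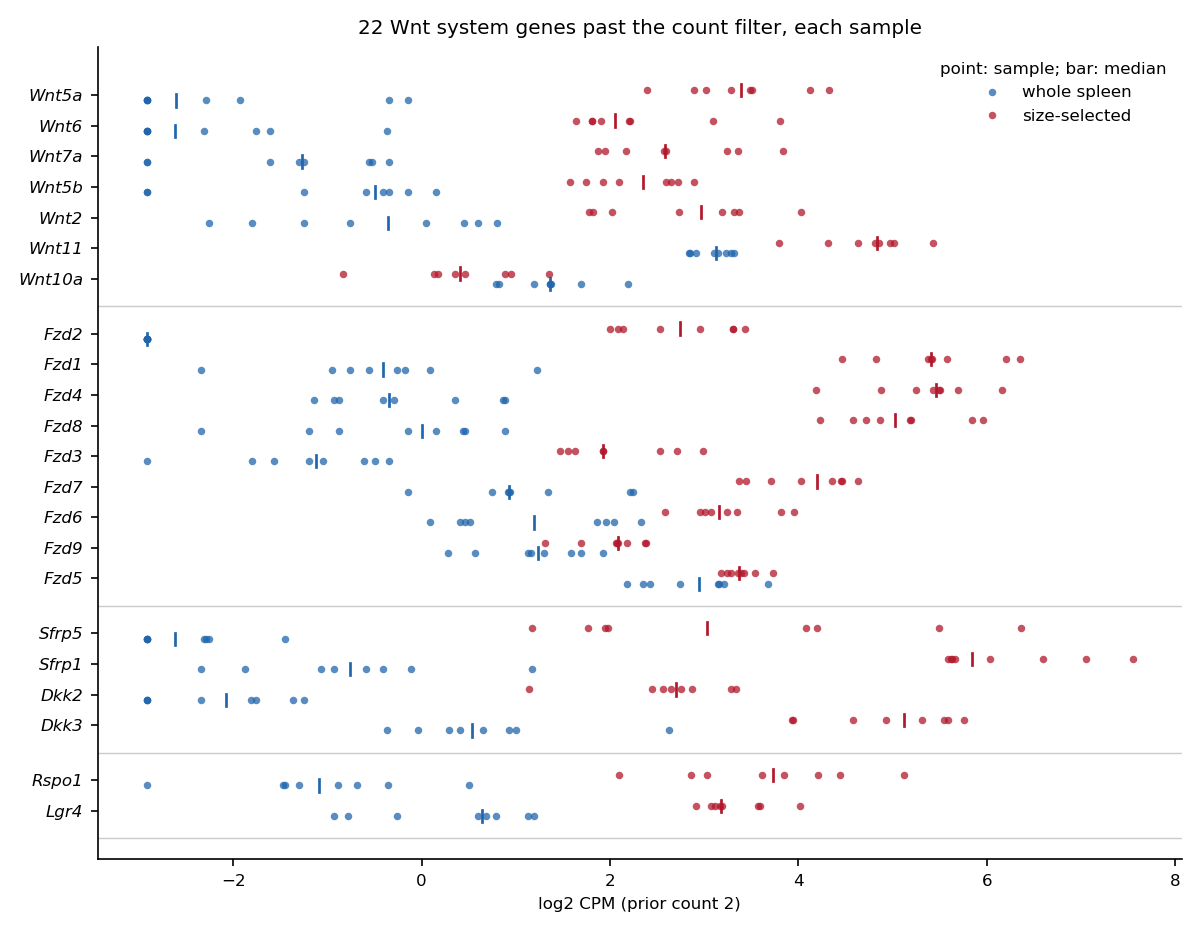
Level of each of the 22 genes past the filter in each sample, on a log2 CPM axis with a prior count of 2; points are samples (8 a fraction), short vertical bars are medians, and genes are grouped by role (ligands, receptors, antagonists, then *Rspo1* and *Lgr4*). The size-selected points lie to the right of the whole spleen points without overlap for 19 genes, overlap for *Fzd5* and *Fzd9*, and lie mostly to the left for *Wnt10a*.

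Among the receptors, 9 of the 10 Frizzled genes passed the filter, and for all 9 edgeR called the size-selected samples higher, with log2 fold changes from 0.47 for *Fzd5* to 9.71 for *Fzd2*. *Fzd2*, *Fzd1*, *Fzd4* and *Fzd8* stood at the upper end, and *Fzd9* and *Fzd5* at the lower end. The promoters of *Fzd4* and *Fzd5* are shown first because these receptors lie far apart in their fraction difference while both promoters are rich in GC boxes, the motif that Sp1-type factors bind (GGGCGG, or CCGCCC when it lies on the other strand, overlaps counted). Both come from RefSeq on GRCm38.p6, 5′ to 3′ on the gene's strand, and end where the annotated gene starts. Capitals mark the GC boxes, 7 in the 239 bases of *Fzd4* at chr7:89404116-89404354 (+ strand) and 9 in the 249 bases of *Fzd5* at chr1:64737752-64738000 (- strand).
*Fzd4*: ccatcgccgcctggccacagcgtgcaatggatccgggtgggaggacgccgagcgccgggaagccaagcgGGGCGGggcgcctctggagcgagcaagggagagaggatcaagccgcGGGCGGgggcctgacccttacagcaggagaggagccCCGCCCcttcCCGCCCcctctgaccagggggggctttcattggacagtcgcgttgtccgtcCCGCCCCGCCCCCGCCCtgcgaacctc
*Fzd5*: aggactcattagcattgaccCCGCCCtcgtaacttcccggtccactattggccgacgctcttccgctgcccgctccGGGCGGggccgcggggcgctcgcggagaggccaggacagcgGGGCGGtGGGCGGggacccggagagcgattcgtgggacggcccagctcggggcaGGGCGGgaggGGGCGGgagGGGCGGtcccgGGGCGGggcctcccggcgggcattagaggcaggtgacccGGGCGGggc

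RefSeq promoters were found for 29 of the 44 genes, 32 promoters in all. In the 250 bases before the start, 68.8% of these 32 hold a GC box, against 32.7% of all 32851 promoters in the table. A TATA box (TATAAA on either strand) is in 12.5% of the 32 and 12.4% of all, and a TCF/LEF motif (the letters CTTTGAA on either strand, also with AT, TA or TT in place of the final AA) in 12.5% and 14.8%. CG dinucleotides have a median of 22 in the 32 promoters and 6 in all. These are matches of letters and do not show that a factor binds there.

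*Fzd2* (chromosome 11, 102604396 to 102608058, GENCODE M21 on GRCm38), a receptor for *Wnt5a* among other ligands, was listed at 0 in all 8 whole spleen samples. In the size-selected samples its lowest, median and highest levels were 3.88, 6.61 and 10.7 CPM. Measured against a floor of 3 counts per library, the size-selected mean was at least 32.2-fold higher, and the edgeR adjusted p was 3.03e-08. Its fitted log2 fold change of 9.71 (SE 0.59) depends on the prior count, as it does for any gene at 0 in a whole group. Every size-selected sample held at least 56 counts of *Fzd2*, so its presence did not rest on a few samples.

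*Fzd1* (chromosome 5, 4753839 to 4758035) was the most abundant Frizzled per length in the size-selected samples. It measured 22, 42.4 and 81.7 CPM there (lowest, median and highest) and 0.0653, 0.622 and 2.20 CPM in whole spleen. Its log2 fold change was 5.99 (SE 0.41, edgeR adjusted p 7.53e-10). Even the highest whole spleen sample, number 427, was about an order of magnitude below the lowest size-selected sample.

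*Fzd4* (chromosome 7, 89404355 to 89413134) encodes the receptor of Norrin in vessels, besides its role for Wnts. It measured 18.1, 44 and 71.2 CPM in the size-selected samples and 0.321, 0.654 and 1.71 CPM in whole spleen, a log2 difference of 5.62 (SE 0.36, edgeR adjusted p 3.29e-10). *Fzd8* (chromosome 18, 9212163 to 9218136) measured 18.6, 32.6 and 61.9 CPM against 0.0653, 0.876 and 1.71 CPM, a log2 difference of 5.44 (SE 0.40, edgeR adjusted p 1.53e-09). For both receptors, number 427 was the highest sample in each fraction and number 408 the lowest size-selected sample.

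*Fzd3* (chromosome 14, 65192449 to 65262463), known for axon guidance and planar polarity, was a low-level receptor in both fractions. It measured 2.64, 3.66 and 7.80 CPM in the size-selected samples and 0, 0.328 and 0.653 CPM in whole spleen. The log2 fold change was 3.66 (SE 0.43, edgeR adjusted p 4.65e-07), and 3.91 on restored counts. *Fzd7* and *Fzd6* also separated the fractions without overlap, with log2 fold changes of 2.86 (SE 0.32, edgeR adjusted p 2.59e-07) and 1.91 (SE 0.34, edgeR adjusted p 6.94e-05). Their lowest size-selected levels were 10.2 and 5.88 CPM, and their highest whole spleen levels were 4.60 and 4.88 CPM.

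*Fzd9* and *Fzd5* were the receptors with most RNA per length in whole spleen, and their fractions overlapped. *Fzd9* measured 2.35, 4.10 and 5.06 CPM in the size-selected samples and 1.08, 2.22 and 3.66 CPM in whole spleen, a log2 difference of 0.80 (SE 0.25, edgeR adjusted p 0.00811), higher in 7 of 8 pairs of the same number. *Fzd5* (chromosome 1, 64730558 to 64737751) measured 8.93, 10.2 and 13.1 CPM against 4.40, 7.64 and 12.7 CPM, a log2 difference of 0.47 (SE 0.20, edgeR adjusted p 0.043), also higher in 7 of 8 pairs. The *Fzd5* call was lost on restored counts (log2 fold change 0.41, edgeR adjusted p 0.0699) and when number 407, 427, 436, 445, 447 or 460 was left out (0.38 to 0.51, edgeR adjusted p up to 0.128). *Fzd10* fell short of the filter, with at most 12 counts in a size-selected sample and at most 2 in whole spleen.

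The antagonists included *Sfrp1*, which had the highest mean per length in the size-selected samples, and *Sfrp5*, whose mean was high through a few of those samples. Of the 8 antagonist genes, 4 passed the filter (*Sfrp1*, *Sfrp5*, *Dkk2* and *Dkk3*), and all 4 were called higher. None of the 4 overlapped between fractions.

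*Sfrp1* (chromosome 8, 23411502 to 23449632), which binds Wnts outside the cell, measured 47.8, 57.9 and 187 CPM in the size-selected samples (lowest, median and highest). In whole spleen it measured 0.0642, 0.463 and 2.12 CPM. That is 7.12 on the log2 scale (SE 0.49, edgeR adjusted p 7.99e-10). Number 436 was the highest size-selected sample and number 427 the highest whole spleen sample.

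*Sfrp5* (chromosome 19, 42197971 to 42202252), known as an inhibitor of *Wnt5a*, varied more between the size-selected samples than any other gene past the filter. It measured 81.9 CPM in number 436, 44.7 in 408, 18.3 in 427 and 16.7 in 435, and then 3.82 in 407, 3.73 in 445, 3.27 in 460 and 2.13 in 447. The values thus fell into a higher and a lower set with a gap between them, and the ratio of highest to lowest was 38.5. In whole spleen *Sfrp5* had at most 3 counts in a sample, or 0.233 CPM, and was at 0 in numbers 427, 435, 447 and 460. Its log2 fold change was 8.46 (SE 1.06, edgeR adjusted p 1.08e-06), with 7.79 when number 436 was left out and 9.31 when number 407 was. By limma-voom it was 7.22 (SE 1.73, limma-voom adjusted p 0.00109). Its RefSeq promoter is shown for comparison with those of *Fzd4* and *Fzd5*, which are richer in CG dinucleotides (24 and 31, against 13 in 250 bases here). Other receptors differ from these 2: the *Fzd1* promoter has 12 CG dinucleotides in 250 bases and no GC box. The *Sfrp5* promoter holds 1 GC box, in capitals (GRCm38.p6, chr19:42202253-42202502, - strand).
*Sfrp5*: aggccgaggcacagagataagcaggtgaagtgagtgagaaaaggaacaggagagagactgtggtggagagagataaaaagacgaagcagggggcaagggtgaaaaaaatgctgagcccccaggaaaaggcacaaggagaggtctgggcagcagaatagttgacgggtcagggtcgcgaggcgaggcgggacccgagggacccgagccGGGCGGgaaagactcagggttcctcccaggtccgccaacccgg

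*Dkk2* (chromosome 3, 132085292 to 132180304), which binds the Lrp co-receptors, measured 2.08, 6.37 and 9.94 CPM in the size-selected samples and 0, 0.109 and 0.288 CPM in whole spleen. *Dkk2* had a log2 fold change equal to 5.73 (SE 0.49, edgeR adjusted p 8.80e-09). Number 408 was well below the other size-selected samples. *Dkk3* (chromosome 7, 112116017 to 112159057), a divergent member of the family whose action on Wnt signalling is less clear, measured 15.2, 34.9 and 54.1 CPM against 0.642, 1.32 and 6.04 CPM. Its log2 fold change was 4.21 (SE 0.43, edgeR adjusted p 7.47e-08). The highest sample in both fractions was number 427. Of the antagonists short of the filter, *Sfrp4* reached 161 counts in a size-selected sample and 9 in whole spleen, and *Sfrp2* reached 36.3 and 4.32 estimated counts.

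Of 19 Wnt genes, 7 passed the filter, 6 of them called higher (*Wnt5a*, *Wnt6*, *Wnt7a*, *Wnt5b*, *Wnt2* and *Wnt11*) and 1 lower (*Wnt10a*). *Wnt5a* (chromosome 14, 28504750 to 28527448), the best known ligand of the pathways that bypass beta-catenin, measured 5.12, 10.3 and 19.8 CPM in the size-selected samples. In whole spleen it measured 0, 0.0359 and 0.771 CPM. Its log2 fold change was 5.76 (SE 0.60, edgeR adjusted p 1.19e-07), and 6.58 without number 435. *Wnt5a* and its inhibitor *Sfrp5* were thus both higher in every size-selected sample than in any whole spleen sample, but number 408 was the lowest size-selected sample for *Wnt5a* and the second highest for *Sfrp5*.

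*Wnt6* (chromosome 1, 74771892 to 74785322), a ligand best known from epithelia, measured 2.99, 4.04 and 13.8 CPM in the size-selected samples and 0, 0.0343 and 0.642 CPM in whole spleen. Its log2 fold change was 5.23 (SE 0.63, edgeR adjusted p 6.42e-07), from 4.71 without number 436 to 6.35 without number 460. *Wnt7a* (chromosome 6, 91363981 to 91411363) measured 3.53, 5.87 and 14.1 CPM against 0, 0.281 and 0.653 CPM, a log2 difference of 4.49 (SE 0.50, edgeR adjusted p 2.72e-07). The highest *Wnt6* level was in number 436 and the highest *Wnt7a* level in number 427. The neighbouring genes *Wnt6* and *Wnt10a*, which lie on the same strand of chromosome 1 with *Wnt6* ending at 74785322 and *Wnt10a* starting at 74791516, went in opposite directions between the fractions.

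*Wnt5b* measured 2.86, 5.03 and 7.30 CPM in the size-selected samples and 0, 0.576 and 0.979 CPM in whole spleen, a log2 difference of 3.36 (SE 0.48, edgeR adjusted p 5.65e-06). It overlaps the protein-coding gene *Fbxl14* on the opposite strand, and no source says whether counting used strand, which leaves its level uncertain. *Wnt2* measured 3.31, 7.75 and 16.2 CPM against 0.0763, 0.678 and 1.61 CPM, a log2 difference of 3.33 (SE 0.49, edgeR adjusted p 8.43e-06), and 3.58 on restored counts. In all, 13 of the 44 genes overlap an annotated gene on the opposite strand, mostly a noncoding one or a pseudogene, and the same doubt holds for these (*Wnt5a*, *Wnt6*, *Wnt11*, *Rspo1*, *Fzd3*, *Fzd5* and *Fzd6* among the genes past the filter).

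*Wnt11* and *Wnt10a* were the ligands with most RNA in whole spleen, also per length. *Wnt11* (chromosome 7, 98835112 to 98855195), a ligand of the polarity pathways, measured 7.01, 8.61 and 9.80 CPM in whole spleen and 13.8, 28.4 and 42.9 CPM in the size-selected samples. The log2 fold change was 1.72 (SE 0.18, edgeR adjusted p 1.39e-07), and 1.96 on restored counts. Its whole spleen samples were close together, and its fractions did not overlap.

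*Wnt10a* (chromosome 1, 74791516 to 74804179), a ligand of the beta-catenin pathway, was the exception to the direction of the others. It measured 1.60, 2.44 and 4.43 CPM in whole spleen and 0.43, 1.19 and 2.42 CPM in the size-selected samples. The log2 fold change was -0.92 (SE 0.30, edgeR adjusted p 0.0122), and *Wnt10a* was lower in 7 of 8 pairs of the same number. The pair that went the other way was number 408, and without it the log2 fold change was -1.17. The B cell and T cell lists were lower in the size-selected samples too, in 8 of 8 pairs each, and their part in the *Wnt10a* difference was not tested.

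*Rspo1* and *Lgr4* were the genes of the R-spondin branch that passed the filter, and edgeR called both higher in the size-selected fraction. *Rspo1* (chromosome 4, 124986430 to 125009099), a secreted amplifier of Wnt signalling, measured 4.15, 13.2 and 34.7 CPM there and 0, 0.341 and 1.28 CPM in whole spleen. The log2 fold change was 5.03 (SE 0.53, edgeR adjusted p 1.25e-07), with the highest size-selected level in number 407. *Lgr4* (chromosome 2, 109917647 to 110014257), one of its receptors, measured 7.40, 8.90 and 16.1 CPM against 0.392, 1.43 and 2.16 CPM, a log2 difference of 3.0 (SE 0.32, edgeR adjusted p 1.41e-07). The RefSeq promoter of *Rspo1* is given because this is the R-spondin with most RNA here. Unlike those of *Fzd4* and *Fzd5*, but like those of *Fzd1* and *Lgr4*, its 250 bases hold no GC box (GRCm38.p6, chr4:124986180-124986429, + strand).
*Rspo1*: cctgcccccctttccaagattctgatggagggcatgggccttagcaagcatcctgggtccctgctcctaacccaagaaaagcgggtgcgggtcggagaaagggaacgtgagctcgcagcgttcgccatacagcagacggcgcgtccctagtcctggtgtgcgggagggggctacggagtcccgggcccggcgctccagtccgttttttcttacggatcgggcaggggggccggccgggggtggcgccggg

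The 18 genes above 0 but short of the filter were read from a fit without a filter, in which 25.3% of 28235 genes were called higher. In that fit 12 of the 18 were called higher and none lower. *Lgr6*, an R-spondin receptor, had up to 154 estimated counts in a size-selected sample and a single count in all of whole spleen. The ratio of its summed counts, scaled by library, was 378 (95% interval 67.5 to 14957, counting error only), and its fitted log2 fold change was 7.50 (SE 0.78, edgeR adjusted p 3.70e-08). *Rspo3* reached 109 counts in a size-selected sample and 4 in whole spleen, with a log2 difference of 5.56 (SE 0.86, edgeR adjusted p 1.15e-05), and 7.92 without number 427, which held all 4 of the whole spleen counts.

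Of the ligands short of the filter, *Wnt9a* had up to 40.7 estimated counts in a size-selected sample and 1 in all of whole spleen, a ratio of summed counts of 132 (95% interval 23.2 to 5224). *Wnt2b* had up to 52 counts against 3 in all, a ratio of 42.7 (95% interval 14.3 to 209). *Wnt7b* had up to 18 counts against 0, at least 2.27-fold higher by the floor of 3 counts per library. *Wnt4*, known from the stroma of other organs, reached 79 counts against 6, with a log2 difference of 4.18 (SE 0.71, edgeR adjusted p 3.57e-05). The fitted log2 fold changes of these genes moved with single samples, to 5.25 for *Wnt4* without number 436, 7.30 for *Wnt2b* without 408 and 4.40 without 445, 7.25 for *Wnt9a* without 445, 4.25 for *Fzd10* without 407, 4.96 for *Rspo3* without 436 and 8.22 for *Lgr6* without 460. Restored counts gave 8.08 for *Lgr6*, 4.0 for *Sfrp2*, 6.27 for *Wnt9a* and 3.04 for *Wnt9b*. The other 6 called in this fit were *Sfrp2* (3.48), *Sfrp4* (3.01), *Fzd10* (3.12), *Wnt9b* (2.79), *Rspo2* (3.62) and *Wnt1* (3.29), where the values are log2 fold changes.

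*Rspo2* and *Wnt1* had 12 and 10 counts in all, from 3 size-selected samples each. When the number was added to the fit as a replicate block, their edgeR adjusted p rose to 0.147 and 0.197. With that block 10 of the 18 were called higher, where 6448 of all 28235 genes were. Without the block, the *Rspo2* call was lost without number 407, 408 or 436, and the *Wnt1* call without 435, 436 or 447 (edgeR adjusted p up to 0.07 and 0.093), with a *Wnt1* value of 2.61 without 436. The remaining 6 were not called: *Lgr5* (log2 fold change 1.3, edgeR adjusted p 0.0842), *Wnt10b* (-1.23, 0.186), *Wnt3* (-0.94, 0.337), *Wnt8a* (-1.05, 0.304), *Wnt16* (-0.43, 0.729) and *Wnt8b* (0.45, 0.772). Restored counts gave -0.66 for *Wnt3* and -0.11 for *Wnt16*. Single samples moved these values too, to -0.01 for *Wnt3* without number 408, -1.40 and 0.27 for *Wnt16* without 436 and 435, and 3.33 and -2.86 for *Wnt8b* without 436 and 435. *Lgr5*, the stem cell marker of gut epithelium, had at most 29 counts in a sample and passed the threshold without number 427 (1.42, edgeR adjusted p 0.0294). It also passed the count filter when number 427 or 408 was left out, and was called in both of those fits (1.40 and 1.44, edgeR adjusted p up to 0.0438). Its locus overlaps a protein-coding gene on the opposite strand. *Wnt8a* had a single count in all 16 samples, and *Wnt8b* had counts in 1 sample of each fraction.

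**Figure D2:**
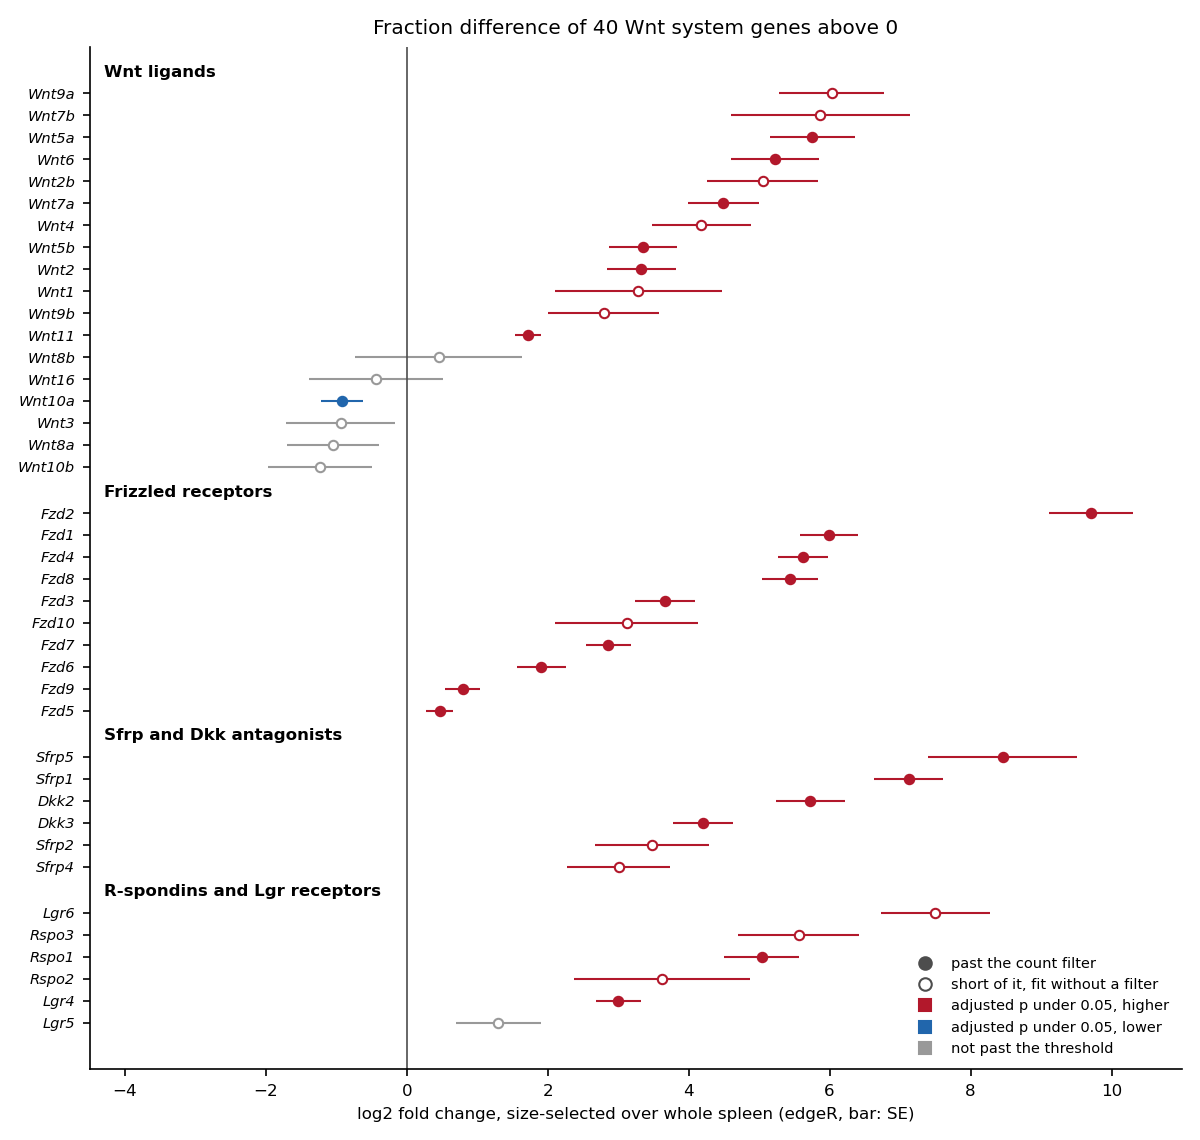
Log2 fold change of the 40 genes above 0 (size-selected over whole spleen, edgeR; bars are SE) by role; filled points passed the count filter, open points come from the fit without a filter, and colour marks the calls at an adjusted p under 0.05. *Fzd2* (9.71) and *Sfrp5* (8.46) stand farthest to the right, and *Wnt10a* (-0.92) is the called gene to the left of 0.

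Levels of different genes were compared per length, as TPM (counts over exon length, scaled to a fixed total per sample) computed here from the deposited counts and the summed exon length of each gene. In the size-selected samples *Sfrp1* ranked first at 53.9 ± 31.8 TPM, then *Sfrp5* at 33.1 ± 43.2, *Fzd1* at 31.4 ± 12.3, *Dkk3* at 28.3 ± 12.2, *Rspo1* at 21.4 ± 13.3, *Wnt11* at 18.7 ± 5.23, *Fzd4* at 17.6 ± 5.62 and *Fzd8* at 16.8 ± 6.65 (SD, n = 8). Each of these differed from its neighbour in the order by less than its SD. The rank of *Sfrp5* rested on single samples: its mean was 20.3 TPM without number 436 and 27.4 TPM without number 408, below *Fzd1* and *Dkk3* in both cases (each number was left out in turn, an alternative chosen after seeing the data). In whole spleen *Wnt11* ranked first at 4.54 ± 0.712 TPM, ahead of *Fzd5* at 2.39 ± 0.779, *Wnt10a* at 2.28 ± 0.787 and *Fzd9* at 2.25 ± 0.846, and the last 3 lay within 1 SD of each other (SD, n = 8).

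The make-up of the set per length therefore differed between the fractions. Antagonists made up 38.5 ± 9.48% of the summed TPM of the 44 genes in the size-selected samples and 9.05 ± 5.08% in whole spleen, and the highest whole spleen sample (20.2%, number 427) was below the lowest size-selected sample (28.1%). The whole spleen share comes from a sum of 1.99 ± 1.62 TPM. *Dkk3*, whose action on Wnt signalling is less clear, is counted as an antagonist. *Frzb*, a Wnt binder outside the 44 genes, is not (23.1 ± 8.49 TPM in the size-selected samples). The summed TPM of each role was higher in the size-selected samples, at 56.6 ± 16 against 9.10 ± 1.07 for ligands and 97.9 ± 29.9 against 8.17 ± 1.70 for receptors. As shares, ligands made up 19.2 ± 3.95% against 45.4 ± 5.17%, with *Wnt11* and *Wnt10a* the main ligands of whole spleen. Receptors made up 32.7 ± 5.15% against 40.1 ± 1.57%, and the R-spondin branch 9.70 ± 4.11% against 5.45 ± 2.51% (SD, n = 8 throughout, not tested).

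**Figure D3:**
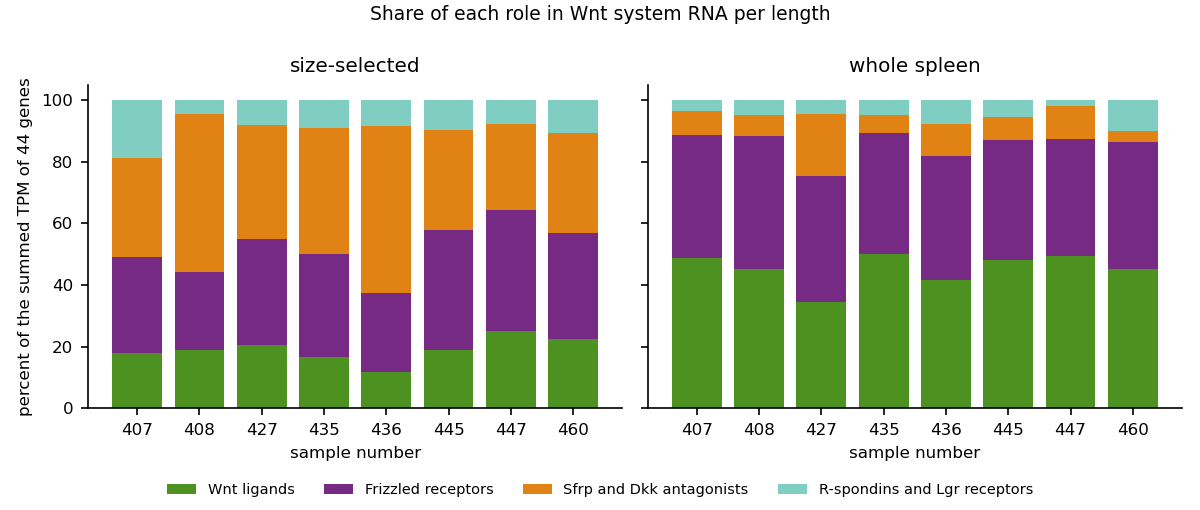
Percent of the summed TPM of the 44 genes held by ligands, receptors, antagonists and R-spondins with Lgr receptors, in each of the 8 size-selected and 8 whole spleen samples. The antagonist share is between 28.1% and 54.0% in the size-selected samples and between 3.44% and 20.2% in whole spleen.

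The authors' deposited table, which lists 2201 genes higher in the size-selected group, holds 19 of the 44, of which 13 passed the filter here. The other 6 are *Lgr6*, *Wnt9a*, *Rspo3*, *Wnt2b*, *Wnt7b* and *Wnt4*. In the authors' deposited table the log2 fold change is 9.06 for *Fzd2*, 8.66 for *Sfrp5*, 7.11 for *Sfrp1* and 3.91 for *Fzd3*, the lowest of the 19. The authors' deposited table gives a mean of 26.3 TPM for *Sfrp1* and 15.9 TPM for *Sfrp5* in the size-selected group, which are on another scale than the TPM computed here.

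The rest of the pathway was read from 76 other genes in 6 lists, of which 68 passed the filter. By edgeR, 43 of them were higher in the size-selected fraction and 8 were lower, with a median log2 fold change of 1.01, against 37.5% higher, 30.4% lower and a median of 0.05 for all genes tested. Here too, a gene scarce in whole spleen passes the filter only when it is abundant in the size-selected samples. *Daam2* and *Ror2*, for example, had 3 and 12 counts in all of whole spleen. These counts therefore describe the 68 and not all 76. The counts of each list below stand beside the same shares of all genes, 37.5% called higher and 30.4% called lower.

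All 12 genes of Wnt secretion and co-reception were called higher. They include *Porcn*, which attaches the lipid to Wnts, with a log2 fold change of 4.36, *Wls*, which carries Wnts to the surface, with 1.92, and the co-receptors *Lrp5* with 3.04 and *Lrp6* with 0.56. The largest differences in this list were those of *Ror2* (6.70, SE 0.53), *Gpc3* (6.66, SE 0.56, and 7.46 without number 427) and *Ror1* (5.94, SE 0.41). *Ror1* and *Ror2* are receptor kinases for *Wnt5a*, and *Gpc3* is a glypican of the cell surface. *Ror2* measured 5.43, 11.9 and 18.2 CPM against at most 0.408 CPM in whole spleen.

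Of 15 other extracellular inhibitors and regulators, 9 passed the filter, 6 were called higher and 2 lower. *Frzb*, a further Frizzled-related Wnt binder, had a log2 fold change of 7.37 (SE 0.56; 8.47 without number 408), *Tspan12*, which works with *Fzd4*, 5.82 (SE 0.40), and *Apcdd1*, a membrane inhibitor, 4.44 (SE 0.41; 4.85 on restored counts). *Frzb* measured 11.8, 27 and 46.7 CPM against at most 0.763 CPM in whole spleen. The called genes that were lower were *Dkkl1* (-1.56, SE 0.31) and *Znrf3* (-0.49, SE 0.20), a ubiquitin ligase that removes Frizzleds from the surface. *Znrf3* was not called without number 407, 436, 445, 447 or 460 (edgeR adjusted p up to 0.115) or by limma-voom (adjusted p 0.056).

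Of 14 genes of the destruction complex and signal transduction, 5 were called higher, 2 lower and 7 not (with the replicate block 3, 2 and 9), and the log2 fold changes ran from -0.25 to 1.03. The share called higher was near the 37.5% of all genes tested. *Dvl1*, which relays the signal from Frizzled, had 1.03 (SE 0.18), *Ctnnb1*, the gene of beta-catenin, 0.59 (SE 0.09) and 0.97 on restored counts, and *Amer1* 0.47 (SE 0.20, edgeR adjusted p 0.0451). *Amer1* was not called with the replicate block (edgeR adjusted p 0.0776), on restored counts (0.0717) or without number 407, 427, 436, 447 or 460 (up to 0.164). *Tnks* (0.35, edgeR adjusted p 0.0461) was the other gene lost with the block (edgeR adjusted p 0.0542), and was also lost on restored counts (0.30, edgeR adjusted p 0.0868), with upper quartile scaling (0.164), with sex as a covariate, without a count filter (0.118) and without number 427, 435, 436, 447 or 460 (up to 0.14).

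Of 14 nuclear factors, 8 were called higher and 3 lower (with the replicate block 7 and 3). *Pygo1*, a beta-catenin co-activator, had a log2 fold change of 4.90 (SE 0.70; 6.24 without number 436), *Tle2*, a co-repressor, 4.5 (SE 0.35), and *Tcf7l1* 3.84 (SE 0.32). Among the 3 called lower were the TCF/LEF genes that T cells express. *Tcf7* measured 8.45, 23.0 and 37.3 CPM in the size-selected samples and 72.3, 84.6 and 102 CPM in whole spleen, a log2 fold change of -1.82, and -1.12 on restored counts. *Lef1* had -1.79, and -1.40 on restored counts. The T cell list was lower in the same samples, as given above, and its part was not tested.

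Of 10 feedback and target genes, 9 passed, 6 were called higher and 1 lower. *Nkd1* and *Nkd2*, inhibitors that bind Dishevelled, had log2 fold changes of 6.40 (SE 0.37) and 6.17 (SE 0.53), and *Twist1*, a mesenchymal transcription factor, 4.32 (SE 0.47). *Nkd1* measured 12.6, 25.9 and 36.4 CPM in the size-selected samples and 0, 0.323 and 0.503 CPM in whole spleen. *Axin2*, the target most used as a readout of beta-catenin signalling, measured 0.84, 1.81 and 2.60 CPM against 1.47, 1.95 and 3.08 CPM. It was not called (log2 fold change -0.33, SE 0.25, edgeR adjusted p 0.243), nor on restored counts (-0.09, edgeR adjusted p 0.768). *Myc* was lower (-0.29, edgeR adjusted p 0.0119), and not called without number 445 (-0.23, edgeR adjusted p 0.0623).

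Of 11 planar cell polarity genes, 10 passed, 6 were called higher and none lower. *Prickle2* and *Daam2* had log2 fold changes of 7.48 (SE 0.49) and 7.23 (SE 0.52), and *Vangl1*, a core membrane protein of the polarity system, 3.38 (SE 0.47). *Daam2* had 3 counts in all of whole spleen, and its value was 6.48 by limma-voom. *Prickle2* measured 11, 23.7 and 30.9 CPM against at most 0.385 CPM in whole spleen.

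**Figure D4:**
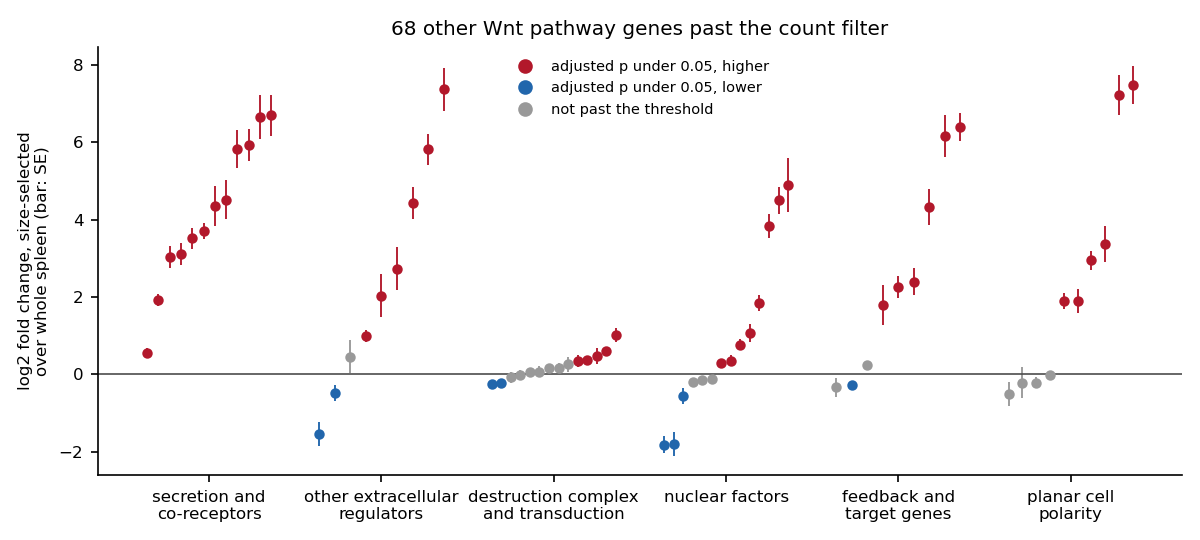
Log2 fold change (size-selected over whole spleen, edgeR; bars are SE) of the 68 other Wnt pathway genes past the filter, by list, with each list sorted by value; red and blue mark genes called higher and lower, grey those not called. The 12 genes of secretion and co-reception are all above 0, while the 14 of the destruction complex lie between -0.25 and 1.03.

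Sex was compared within each fraction (4 female and 4 male samples), and no gene of the set was called by edgeR. In whole spleen 10 of the 44 were tested, none with an unadjusted p under 0.05, where 0.194% of all genes were called. In the size-selected samples 31 were tested, where 0.0397% of all genes were called. *Lgr4* (female minus male log2 fold change 0.54, SE 0.21, edgeR adjusted p 0.999) and *Sfrp4* (1.90, SE 0.79, edgeR adjusted p 0.999) had an unadjusted p under 0.05. *Lgr4* measured 8.98 to 16.1 CPM in the 4 female samples and 7.40 to 8.82 CPM in the 4 male samples, without overlap. DESeq2 called none of them in either fraction, with 0 and 2 at an unadjusted p under 0.05, where it called 3.87% of all genes in whole spleen and 0.145% in the size-selected samples.

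In the interaction of sex and fraction, 0% of 15760 genes were called by edgeR, and so none of the 32 tested here. *Fzd5* (0.78, SE 0.36) and *Wnt5a* (2.72, SE 1.29) had an unadjusted p under 0.05, both with an edgeR adjusted p of 1.00, and DESeq2 also called none, with 3 at an unadjusted p under 0.05. The highest size-selected *Fzd5* level was in female number 436 (13.1 CPM) and the highest whole spleen level in male number 408 (12.7 CPM).

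Among the size-selected samples, the genes did not rise and fall together in all cases. Number 408 was the lowest sample for 12 of the 22 genes past the filter (54.5%, against 22.3% of all 14510 genes), and it was also the lowest for the fibroblast, smooth muscle, mesothelial and endothelial lists. Number 427 was the highest for 11 of the 22 (50%, against 27.7% of all genes) and number 436 for 8 of the 22 (36.4%, against 10.2% of all genes). The ratio of the highest to the lowest sample ran from 1.47 for *Fzd5* to 38.5 for *Sfrp5*.

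Each of the 22 genes was compared with the mean log2 CPM of 5 stromal marker lists over the 8 size-selected samples, 110 pairs in all. By an exact permutation test over all 40320 orders of the samples, 17 pairs had an adjusted p under 0.05, among them *Sfrp5* with the glia list, described by order below. The same comparison was not run for all genes, so this count does not show whether these genes follow the lists more than other genes do. The lists are not independent of each other: smooth muscle correlated with endothelial at r = 0.77 and with fibroblast at 0.77, glia and fibroblast at 0.73, and glia and mesothelial at -0.52. *Fzd8* and *Wnt5a* were called with the fibroblast list. *Fzd8* had r = 0.97 (rho = 0.93, exact permutation p = 0.000298, adjusted p 0.0109) and 0.94 without numbers 427 and 436, the farthest from the median of the list. *Wnt5a* had r = 0.95 (rho = 0.93, exact permutation p = 0.000298, adjusted p 0.0109) and also 0.94 without them.

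*Fzd2* was called with the fibroblast list (r = 0.87, rho = 0.95, adjusted p 0.0293) and with the smooth muscle list (r = 0.87, rho = 0.93, adjusted p 0.0317). Its r was 0.88 without numbers 427 and 436 and 0.79 without 408 and 447, in the same order. *Dkk3* was called with the smooth muscle list, with r = 0.90 (rho = 0.95, exact permutation p = 0.00221, adjusted p 0.0243) and 0.92 without numbers 408 and 447. *Fzd4* was called with the endothelial list, with r = 0.94 (rho = 0.76, exact permutation p = 0.00134, adjusted p 0.0238) and 0.85 without numbers 408 and 435, but an adjusted p of 0.193 with Spearman's rho. Several genes were called with more than 1 list, and these pairs do not tell the lists apart. *Fzd4* was also called with the smooth muscle list (r = 0.91, rho = 0.83, adjusted p 0.0243), as were *Wnt5a* (r = 0.89, adjusted p 0.028) and *Fzd8* (r = 0.85, adjusted p 0.0484), with r of 0.85, 0.78 and 0.77 without numbers 408 and 447. *Dkk3* was called with the endothelial list (r = 0.87, adjusted p 0.0355), a relation that rested on numbers 408 and 435 (0.49 without them, and an adjusted p of 0.263 with Spearman's rho). *Wnt2* was called with the endothelial list (r = 0.88, rho = 0.88, adjusted p 0.0238), with r of 0.76 without numbers 408 and 435 and an adjusted p of 0.0664 with Spearman's rho. *Wnt10a* went against the endothelial list, with r = -0.92 (rho = -0.88, exact permutation p = 0.000248, adjusted p 0.0109) and -0.96 without numbers 408 and 435, but an adjusted p of 0.0664 with Spearman's rho. *Wnt10a* was highest in number 408, which had the lowest endothelial mean, and lowest in number 427, which had the highest. Its size-selected values rest on 6 to 35 counts a sample. Number 427 also had the lowest B cell and T cell means, and the relation of *Wnt10a* to those lists was not tested. *Sfrp1* and the fibroblast list had r = 0.93 (rho = 0.90, exact permutation p = 0.00151, adjusted p 0.0238), but 0.64 without numbers 427 and 436, and *Wnt6* and the glia list had r = 0.93 (rho = 0.83, exact permutation p = 0.00213, adjusted p 0.0243), but 0.57 without the same numbers, so that both relations rested on them. *Wnt6* was also called with the fibroblast list (r = 0.89, rho = 0.64, adjusted p 0.0493), as was *Fzd1* (r = 0.88, rho = 0.74, adjusted p 0.0493), with r of 0.18 and 0.63 without those numbers.

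*Sfrp5* was compared with the glia list by order, since its samples fell into separate sets, and no correlation is given for it. The 4 samples with the most *Sfrp5* (436, 408, 427 and 435) were also the 4 with the highest glia means, at 5.32, 3.69, 4.13 and 3.51 on the log2 scale. The other 4 had glia means from 2.63 to 3.14. The split was not particular to glia: the same 4 samples had the 4 lowest mesothelial means, at 3.14, 1.94, 2.78 and 2.84, against 3.70 to 4.76 in the other 4. The pair of *Sfrp5* and the mesothelial list was not called (adjusted p 0.0799). The number of pairs called depended on single samples. It was 1 without number 408, 3 without 435, 5 without 427 and 6 without 436, and 5 pairs were called with Spearman's rho in place of Pearson's r: *Fzd2*, *Fzd8* and *Wnt5a* with the fibroblast list, and *Fzd2* and *Dkk3* with smooth muscle.

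**Figure D5:**
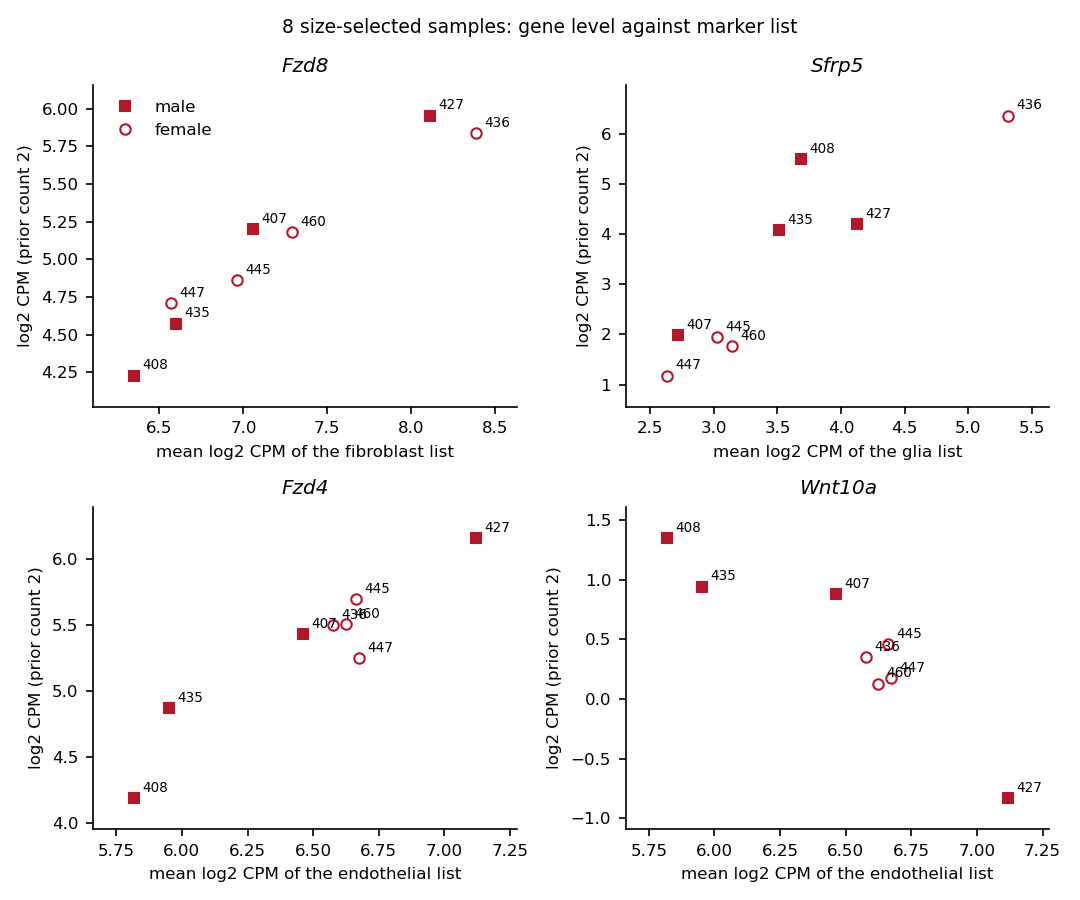
Level of *Fzd8*, *Sfrp5*, *Fzd4* and *Wnt10a* (log2 CPM, prior count 2) against the mean log2 CPM of a marker list in the 8 size-selected samples, each labelled with its number; filled squares are male and open circles female. *Fzd8* rises with the fibroblast list and *Fzd4* with the endothelial list, *Wnt10a* falls with the endothelial list, and *Sfrp5* lies in a higher and a lower set of 4 samples each.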

How the data were processed

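RNA was sequenced from 8 size-selected and 8 whole spleen samples of C57BL/6 mice. Per the submitters' processing notes, the tools were Trim Galore, STAR, RSEM and DESeq and the build mm10; versions and annotation are not given in the sources used here. Estimated counts for each gene and sample are what the deposited count table gives. In the size-selected columns, 3898 genes carry values multiplied by constants of 0.659 to 0.964, found from the values and not mentioned in the labels or headers. Per the file headers, the authors' comparison table has a mean signal (base mean), the log2 fold change and its error, a score from the test, and p-values. The deposited TPM values there are the authors' group means, and the deposited FPKM values were not analysed here.

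Estimated counts were rounded for edgeR 4.0.16 in R 4.3.3, kept if they passed filterByExpr (minimum count 10) and fitted by quasi-likelihood after TMM scaling, with Benjamini-Hochberg adjustment over all genes tested and a threshold of 0.05. Log2 CPM used a prior count of 2. DESeq2 1.42.0, limma-voom (limma 3.58.1), other scalings and filters, sex as a covariate, restored counts and leaving out each number were alternatives. Scripts were tested on simulated counts. Samples of the same number deviated together from their group means, with r from 0.12 to 0.38 (mean 0.21) over 14510 genes in each of the 8 pairs and a mean of -0.03 between numbers, and were taken as pairs. This pairing comes from the values, since the labels state no pairing.

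The genes, the lists and the tests were chosen with earlier results of these data known. Named in full are up to 5 called genes a role with the largest log2 fold change, and up to 3 a pathway list. *Porcn*, *Wls*, *Lrp5*, *Lrp6*, *Dkkl1*, *Znrf3*, *Tcf7*, *Lef1*, *Axin2*, *Myc* and *Tnks* were named after their values were seen. *Ccl19* had 2 rows and was left out of the fibroblast list. Coordinates are from GENCODE M21 on GRCm38, in which 54723 of the 54838 identifiers were found, and promoters from RefSeq on GRCm38.p6, cut where the GENCODE gene starts. Intervals and floors cover counting error only, and a floor is 3 counts per library.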

Additional observations from a re-analysis of the deposited data

Results flagged for a closer look

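The 22 genes past the filter were screened in each fraction for a sample far from the other 7, by its gap to the nearest sample relative to the whole range. This was so in 3 of 43 groups of 8 values, and about 1 in 20 is flagged by chance. In the size-selected samples, number 408 was far below the others for *Dkk2*, at a log2 CPM of 1.14 against 2.45 to 3.33. In whole spleen, number 427 was far above the others for *Dkk3*, at 2.63 against -0.37 to 1.00. For 8 of the 22 genes number 427 was the highest of the whole spleen samples. Number 407 was far above the other whole spleen samples for *Sfrp5*, at -1.45 against -2.91 to -2.26, which rests on 3 counts.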

How the results depend on the processing

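The count of called genes of the set was 22, and 21 to 25 in each alternative with a count filter (25 without number 408, where more genes passed it). The fit without a filter, which tested 40, called 33; there the *Fzd5* call was lost (edgeR adjusted p 0.0997), and those of *Fzd9* and *Wnt10a* were lost in 4 and 2 of the 8 fits that also left out a number. With the replicate block it was 22, and all 22 calls were kept. With restored counts, RLE or upper quartile scaling the call lost was that of *Fzd5* (edgeR adjusted p 0.0699, 0.0547 and 0.139). Upper quartile scaling moved the median log2 fold change of all genes from 0.05 to -0.07. With it 4937 of all genes were called higher and 5265 lower, against 5446 and 4409 with TMM scaling. Of 965 recomputed values for 51 genes from the fit with the filter, 921 kept direction and side of the threshold, 44 were no longer called (*Amer1* 13, *Fzd5* 12, *Tnks* 12, *Znrf3* 6 and *Myc* 1) and 0 reversed. The count of other pathway genes was 51, 48 with the replicate block and 44 to 51 over all alternatives. No gene of the set was called by sex or in the interaction in the alternatives run for them (no filter, DESeq2, RLE, restored counts, each number left out and, for the interaction, the replicate block). The 17 called pairs of genes and marker lists became 5 with Spearman's rho, and from 1 to 13 when each number was left out; the cause was not tested. Genes short of the filter rest on few counts, so absence of a difference was not detectable for them at this depth.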

Other observations

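Some genes short of the filter were uneven between the size-selected samples. *Sfrp4* measured 8.76 CPM in number 436, 4.97 in 445 and 0.138 in 408, a ratio of highest to lowest of 63.3. The same ratio was 28.6 for *Rspo3*, with 5.93 CPM in number 436 and 0.208 in 408, and 26.7 for *Lgr6*, with 7.40 CPM in number 460 and 0.277 in 408. *Sfrp5*, in which number 408 was the second highest sample, differed from these genes in that respect. In whole spleen 36 of the 44 genes had a count in at least 1 sample, and in the size-selected samples 39 did.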
